A study of Mus musculus with 93 samples.

Results

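A set of 10 genes that mark adventitial and progenitor fibroblasts were named for this account, and their rows were taken by gene symbol from the deposited tables of single mouse lung cells. The genes are Ly6a, Ly6c1, Cd34, Thy1, Pi16, Dpp4, Clec3b, Dpt, Pcolce2 and Entpd2. Values were found for 9 of the 10, of 21284 genes used in all. The row of Ly6c1, which encodes a surface antigen of the Ly6 family, held no numeric values. The level and detection of each gene were followed in lineage+ and lineage- cells, and co-detection with Tcf21 was counted within the lineage+ cells.

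Adventitial fibroblasts lie in the connective tissue sleeves around the larger vessels and airways of the lung. They are told apart from alveolar fibroblasts, which lie in the gas exchange septa, by surface proteins such as Sca-1 (the product of Ly6a) and CD34 and by secreted matrix proteins. Fibroblasts with Pi16 and Dpp4 have been described in many mouse tissues as a progenitor-like pool. Tcf21 is a basic helix-loop-helix transcription factor of the lung mesenchyme and is commonly used as an alveolar fibroblast and lipofibroblast marker.

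All cells came from lungs of adult C57BL/6 mice carrying the alleles written Tbx4cre;RosaTm, in which cells with a history of Tbx4 expression carry a reporter. Tbx4 is a transcription factor of the embryonic lung mesenchyme. The files hold 54 libraries labelled Tbx4 lineage+ and 39 labelled Tbx4 lineage-, each made from 1 cell on a Fluidigm C1 microfluidic chip. The sort gate is written as epcam+ CD31- CD45- 7AAD-, whereas the series design calls both populations mesenchymal. No label names an animal, a chip or a culture. The library names begin with 7m-Lung in the lineage+ group and with Tbx4-2 in the lineage- group. The sources used here do not say whether either prefix names an age or a run. Each group was therefore treated as 1 sample, so no test between groups was possible. Lineage, animal and chip, and any difference of age or run, cannot be told apart. The intervals given are exact (Clopper-Pearson) 95% intervals of a share of cells and cover counting error only.

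The labels put the depth at about 6000000 to 7000000 reads per library on average, and the tables hold no counts. Values are FPKM (fragments per kilobase, scaled to sequencing depth), a unit inferred from the values. A gene was called detected in a cell at 1 FPKM or more, and a cell was kept with at least 1000 detected genes. Among the lineage+ libraries 2 pairs had near-identical profiles (Pearson r of 0.996 and 0.997, against at most 0.596 in any other pair) and were averaged, each counted as 1 cell. This left 50 kept lineage+ cells, with a median of 2412 detected genes, and 34 kept lineage- cells, with a median of 1811. Epcam was detected in 1 kept lineage+ cell and in 12 kept lineage- cells. The immune list had a median summed level of 0 FPKM in lineage+ cells (range 0 to 317.7) and of 2402 FPKM in lineage- cells (0 to 46111). For the alveolar type 2 list the median was 0.256 FPKM (0 to 195.02) against 438.8 FPKM (0.197 to 521753). For the endothelial list, 11 of 12 with values, the median was 2.12 FPKM (0 to 494.3) against 0.0780 FPKM (0 to 965.4). Its markers Pecam1 and Cldn5 were listed at 0 in every kept cell, whereas Tek was detected in 9 lineage+ cells and Esam in 5 lineage+ and 6 lineage- cells. Tbx4 has no values in the tables, so the lineage label was not checked against it.

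Most of the marker genes were found in more lineage+ than lineage- cells. A gene entered the comparison when at least 10% of the cells in 1 of the groups detected it, and 8 of the 9 did. All 8 had a lower share of cells in the lineage- group, which was also the case for 67.6% of the 7587 genes that entered. Ratios between groups are log2 ratios of the mean FPKM plus 1. Of the 8 genes, 6 (Cd34, Dpp4, Clec3b, Dpt, Pcolce2 and Entpd2) had a lineage+ mean at least 2-fold above the lineage- mean, and this held for 29.7% of all genes compared. None of the 8 was at least 2-fold lower, against 23.4% of all genes. The median log2 ratio was 1.65 over the 8 genes and 0.15 over all genes compared. Lineage+ cells had more detected genes than lineage- cells. Among the 35 lineage+ and 12 lineage- cells with at least 2000 detected genes, 3 of the genes (Pi16, Dpp4 and Clec3b) were past 2-fold, in place of 6. These 12 included lineage- cells 1, 4, 5, 10 and 20, which each had 6 or 7 of the genes detected. Among all 34 kept lineage- cells, only these and cell 27 had that many. The part of this change in cells in the lower count was not tested.

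**Figure D1:**
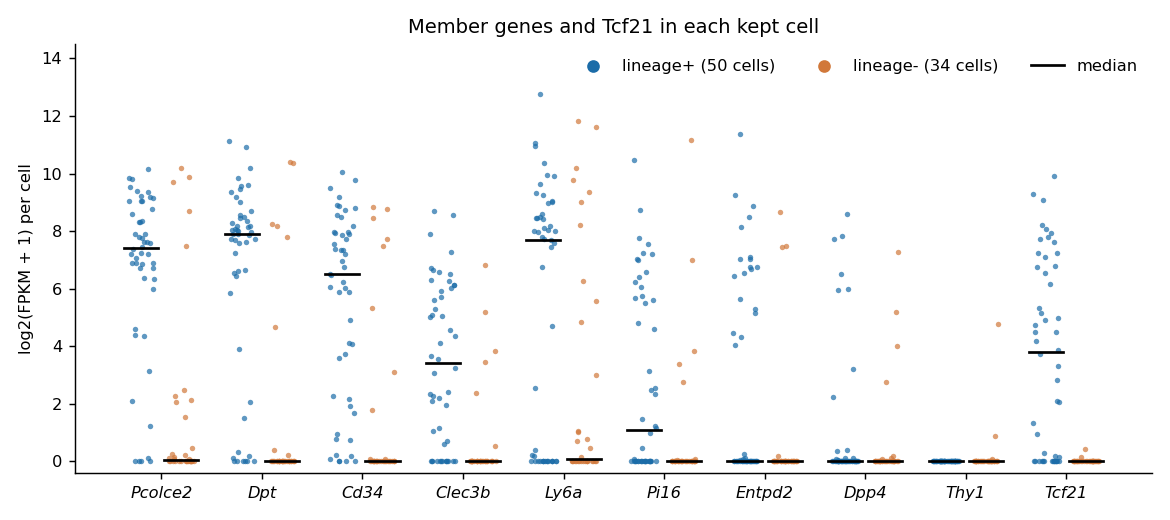
Level of the 9 genes with values and of Tcf21 in each kept cell, as log2(FPKM + 1), with lineage+ cells in blue, lineage- cells in orange and the group median as a black bar. Pcolce2, Dpt and Cd34 are high in most lineage+ cells, Ly6a is either high or near 0 in most lineage+ cells, Pi16 spreads from 0 over all levels, and Thy1 lies at 0 in all 50.

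Among the surface proteins, Ly6a encodes Sca-1, a GPI-anchored antigen used to sort mesenchymal and blood progenitors. The gene lies at chr15:74994877-74998031 on the minus strand (GRCm38). The gene was found in 31 of 50 lineage+ cells (62%, 47.2 to 75.3%), with a lowest value of 0, a median of 206.1 and a highest value of 6987 FPKM. In lineage- cells it was detected in 13 of 34 (38.2%, 22.2 to 56.4%), with a median of 0.0524 and a highest value of 3601 FPKM. The groups overlapped over nearly their whole range. Mean levels were 449.8 and 306.3 FPKM, a log2 ratio of 0.55. In cells with at least 2000 detected genes the ratio was -0.44, and by the mean of log2 values the difference was 2.52, so no direction is given for the level.

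Ly6a has close relatives beside it on chromosome 15, and reads of 75 bases from an identical stretch cannot be assigned to one gene. Its coding sequence and that of the neighbouring Ly6i share a longest identical run of 80 bases, which spans exons 1 and 2 of both. The run is shown in capitals with 15 coding bases on each side, as a spliced sequence from the GENCODE M21 transcripts, 5′ to 3′, because the Ly6i values below are read beside it. The Ly6a stretch runs between chr15:74996495-74997570 and the Ly6i stretch between chr15:74981929-74983025 (GRCm38, minus strand, intron not shown).
Ly6a: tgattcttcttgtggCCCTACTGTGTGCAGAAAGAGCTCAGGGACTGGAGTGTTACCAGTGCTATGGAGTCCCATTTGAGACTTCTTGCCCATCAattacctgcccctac
Ly6i: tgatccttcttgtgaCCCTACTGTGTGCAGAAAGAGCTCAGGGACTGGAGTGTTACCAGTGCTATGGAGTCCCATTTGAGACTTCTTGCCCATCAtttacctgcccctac
In all, 6 of the 1311 windows of 75 bases in the Ly6a transcripts also occur in Ly6i transcripts, and 77 occur in transcripts of Ly6c1.

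Ly6i followed Ly6a at about 1% of its level. In the 36 kept cells with at least 100 FPKM of Ly6a, the ratio of Ly6i to Ly6a had a median of 0.931%, a first quartile of 0.654% and a highest value of 1.46%. Ly6i was above 0 in 34 of these 36 cells and in 1 of the 48 others. The Spearman rho between the genes was 0.96 over the 50 lineage+ cells. The sources used here do not say how reads that fit both genes were divided, and the part of shared reads in the Ly6i values was not tested. The Ly6c1 and Ly6c2 coding sequences share a run of 188 bases, 47.8% of their length, so Ly6c2 values may hold reads of Ly6c1. Ly6c2 was found in 11 of the 50 lineage+ cells and in 6 of the 34 lineage- cells.

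**Figure D2:**
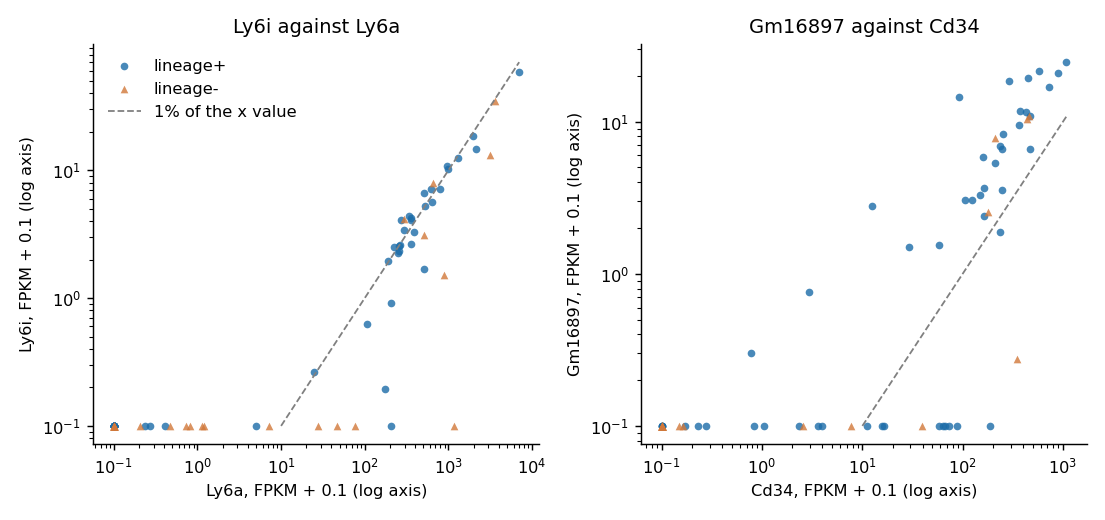
Levels of Ly6i against Ly6a (left) and of the antisense gene Gm16897 against Cd34 (right) in each kept cell, as FPKM + 0.1 on log axes, with lineage+ cells as circles, lineage- cells as triangles and a dashed line at 1% of the x value. Ly6i lies near the dashed line in most cells with Ly6a at 100 FPKM or more, and Gm16897 is below 1 FPKM in all 36 cells without Cd34.

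Cd34 encodes a sialomucin of the cell surface that marks blood progenitors, endothelium and adventitial stromal cells. It lies at chr1:194938821-194961292 on the plus strand. In lineage+ cells it was detected in 40 of 50 (80%, 66.3 to 89.97%), from 0 through a median of 89.6 to 1059 FPKM. In lineage- cells it was detected in 8 of 34 (23.5%, 10.7 to 41.2%), with a median of 0 and a highest value of 460.4 FPKM. The shares of cells did not overlap in their intervals, and the levels of the few positive lineage- cells lay within the lineage+ range. How many of all genes had such a gap was not counted. Means were 183.1 and 49.7 FPKM, a log2 ratio of 1.86. Among cells with at least 2000 detected genes the ratio was 0.49, short of 2-fold. Gm16897, a gene on the opposite strand, shares 148 exonic bases with Cd34, 5.94% of its own exonic length. Detection was seen in 31 of the 48 kept cells with Cd34 and in none of the 36 others, with a rho of 0.86 over lineage+ cells. The sources used here do not say whether the counting used strand, so reads of these genes may be shared.

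Entpd2 encodes an ectonucleotidase that splits extracellular ATP, and lies at chr2:25395874-25401323 on the plus strand. It was detected in 19 of 50 lineage+ cells (38%, 24.7 to 52.8%), where the values ran from 0, with a median of 0, to 2670 FPKM. The gene was found in 3 of 34 lineage- cells (8.82%, 1.86 to 23.7%), at 171.9, 179.2 and 406.5 FPKM. Most cells of both groups had none. The means were 109.2 and 22.3 FPKM, a log2 ratio of 2.24, and lineage+ cell 10 alone held 48.9% of the lineage+ sum. In cells with at least 2000 detected genes (35 lineage+ and 12 lineage-) the log2 ratio was -0.11, so the direction of the Entpd2 mean depends on the cells kept.

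Dpp4 encodes the membrane dipeptidase CD26, and lies at chr2:62330073-62412231 on the minus strand. Detection was seen in 8 of 50 lineage+ cells (16%, 7.17 to 29.1%), with a median of 0 and a highest value of 382.4 FPKM. It was detected in 4 of 34 lineage- cells (11.8%, 3.30 to 27.5%), with a highest value of 155.6 FPKM. The intervals overlapped widely. The means of 20.9 and 6.23 FPKM gave a log2 ratio of 1.60, and 1 cell held 73.4% of the lineage- sum. The ratio was 2.43 without the highest cell of each group, 0.93 with 10 FPKM added to the means and 0.41 by the mean of log2 values, so the 2-fold call depends on the setting. Thy1 encodes a GPI-anchored glycoprotein of T cells, neurons and many fibroblasts, and lies at chr9:44043384-44048579 on the plus strand. It was listed at 0 in all 50 lineage+ cells (0%, up to 7.11%). In lineage- cells it was detected in 1 of 34, cell 30, at 26.3 FPKM. That cell also had 146.3 FPKM of the T-cell receptor component Cd3e and 661.0 FPKM of the immune gene Tyrobp. Cd3e itself was detected in 4 lineage+ and 2 lineage- cells.

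Pi16 encodes a secreted or membrane-tethered protein named peptidase inhibitor 16, and lies at chr17:29318882-29328902 on the plus strand. The gene was found in 25 of 50 lineage+ cells (50%, 35.5 to 64.5%), from 0 through a median of 1.11 to 1423 FPKM. Detection was seen in 5 of 34 lineage- cells (14.7%, 4.95 to 31.1%), with a median of 0 and a highest value of 2313 FPKM. The highest cell of all was thus a lineage- cell, and it held 93.7% of the lineage- sum. The mean levels were 67.9 and 72.6 FPKM, a log2 ratio of -0.10. Without the highest cell of each group the ratio was 2.85, with means of 40.2 and 4.72 FPKM.

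The other secreted proteins were more widely detected. Clec3b, which encodes the plasminogen-binding protein tetranectin (chr9:123150946-123157432, plus strand), was detected in 35 of 50 lineage+ cells (70%, 55.4 to 82.1%), with a median of 9.69 and a highest value of 411.99 FPKM. It was detected in 5 of 34 lineage- cells (14.7%), with a highest value of 112.6 FPKM. The log2 ratio of the means, 46.9 and 5.17 FPKM, was 2.96, the highest of the 9 genes by this measure. By the mean of log2 values the Clec3b difference was 2.76, below Dpt (4.98), Pcolce2 (4.94) and Cd34 (3.91). Among cells with at least 2000 detected genes the Dpp4 ratio, 4.37, was above that of Clec3b, so the rank depends on the setting. Dpt, which encodes the matrix protein dermatopontin (chr1:164796732-164824266, plus strand), was detected in 41 of 50 lineage+ cells (82%, 68.6 to 91.4%), with a median of 236.1 and a highest value of 2213 FPKM. The gene was found in 6 of 34 lineage- cells (17.6%, 6.76 to 34.5%), with a highest value of 1341 FPKM and a log2 ratio of 1.70. Pcolce2 encodes an enhancer of procollagen C-proteinase, which trims fibrillar procollagens (chr9:95637628-95695551, plus strand). Detection was seen in 45 of 50 lineage+ cells (90%, 78.2 to 96.7%), with a median of 169.6 and a highest value of 1134 FPKM. It was detected in 10 of 34 lineage- cells (29.4%, 15.1 to 47.5%), with a highest value of 1157 FPKM and a log2 ratio of 1.36. For Dpt and Pcolce2 the intervals of the shares did not overlap between groups, and such gaps were not counted over all genes. Among cells with at least 2000 detected genes the log2 ratio was 1.76 for Clec3b, 0.13 for Dpt and 0.05 for Pcolce2. The 2-fold calls of Dpt and Pcolce2 thus depend on the cells kept.

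Since FPKM is per length, mean levels can be ordered between genes. In lineage+ cells the order was Ly6a, Dpt, Pcolce2, Cd34, Entpd2, Pi16, Clec3b, Dpp4 and Thy1. In every one of these genes except Thy1 the highest cell exceeded the mean several-fold, so neighbours in this order are not separated beyond the spread between cells. By share of cells the order was Pcolce2, Dpt, Cd34, Clec3b, Ly6a, Pi16, Entpd2, Dpp4 and Thy1, and the intervals of each pair of neighbours down to Dpp4 overlapped.

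**Figure D3:**
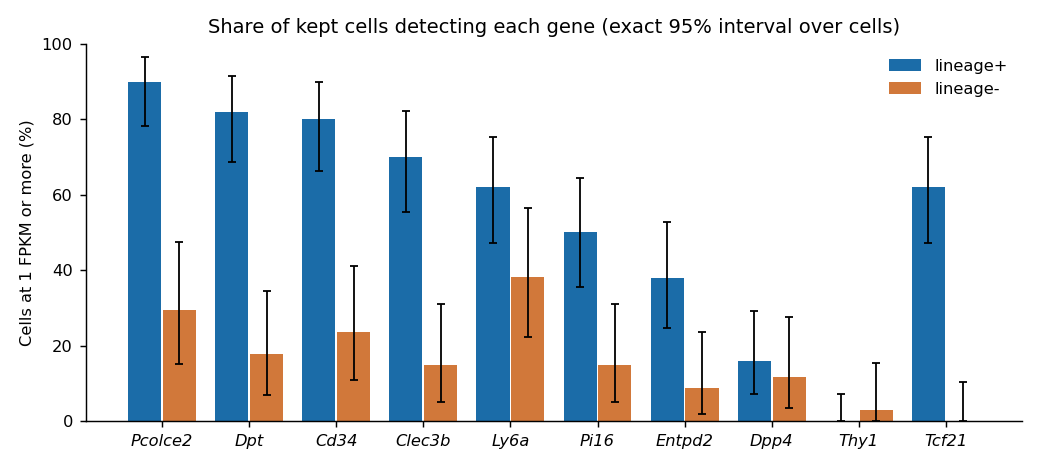
Share of kept cells in which each gene was detected (1 FPKM or more), in percent, for 50 lineage+ cells (blue) and 34 lineage- cells (orange), with exact 95% intervals over cells as error bars. The lineage+ share falls from 90% for Pcolce2 to 0% for Thy1. The intervals of the groups are apart for Pcolce2, Dpt, Cd34, Clec3b, Pi16, Entpd2 and Tcf21. A lower share in lineage- cells, with or without such a gap, was seen for 67.6% of all genes compared. Gaps between intervals were not counted over all genes, so no background is given for them.

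Other genes of the adventitial program were described from a list of 26, of which 22 had values and 19 entered the comparison by the same 10% rule. Of these 19, 15 had a mean at least 2-fold above that of lineage- cells and 0 had one that far below it, with a median log2 ratio of 1.65. Over all genes compared these were 29.7%, 23.4% and 0.15. Among cells with at least 2000 detected genes, 7 genes of the list were past 2-fold, in place of 15. Gfpt2, an enzyme of hexosamine synthesis, had means of 153.2 and 11.8 FPKM (3.59). Serpina3n, a secreted protease inhibitor, had 97.7 and 10.8 FPKM (3.06). Mfap5, a microfibril protein, had 382.2 and 121.5 FPKM (1.65). Anxa3, Emilin2, Penk and Htra3 stayed within 2-fold.

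Within the lineage+ cells the 9 genes were not spread evenly. Ly6a, Pi16 and Entpd2 formed nearly nested sets of cells. Of the 25 cells with Pi16, 24 also had Ly6a, against 7 of the 25 without Pi16 (96%, 79.6 to 99.9%, against 28%, 12.1 to 49.4%). Among 100 other genes detected in 25 lineage+ cells, 1% (1 gene, Ly6i) reached 24 cells with Ly6a, and the median was 17. Of the 19 cells with Entpd2, 18 also had Pi16, against 7 of the 31 without Entpd2. Among 143 other genes detected in 19 lineage+ cells, 0% reached 18 cells with Pi16, and the highest had 15. Spearman rho was 0.69 between Pi16 and Ly6a, 0.69 between Pi16 and Entpd2, 0.66 between Pi16 and Cd34 and 0.46 between Ly6a and Entpd2. These correlations are over the same 50 cells, which belong to 1 sample and differ in depth.

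Cd34 was also more often detected with Pi16 (24 of 25 cells, against 16 of 25), as was Clec3b (23 against 12). Pcolce2 was in all 25 cells with Pi16 and in 20 of the 25 without, and its rho with Pi16 was 0.18. Scara5, a ferritin scavenger receptor, was in 18 of 25 cells with Pi16 and 2 of 25 without, and Ly6c2 in 10 and 1. These 2 genes had the highest rho with Pi16 of 4057 genes in the same cells, so their shares are no separate support. Of other adventitial genes, Sema3c was in 15 and 8, Cd248 in 13 and 5, and Cd55 in 9 and 8. The cells with Pi16 had a median of 2599 detected genes and those without it 2121, and the part of depth in these shares was not tested. Dpt was in 24 of 25 cells with Pi16 and in 17 of the 25 without.

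**Figure D4:**
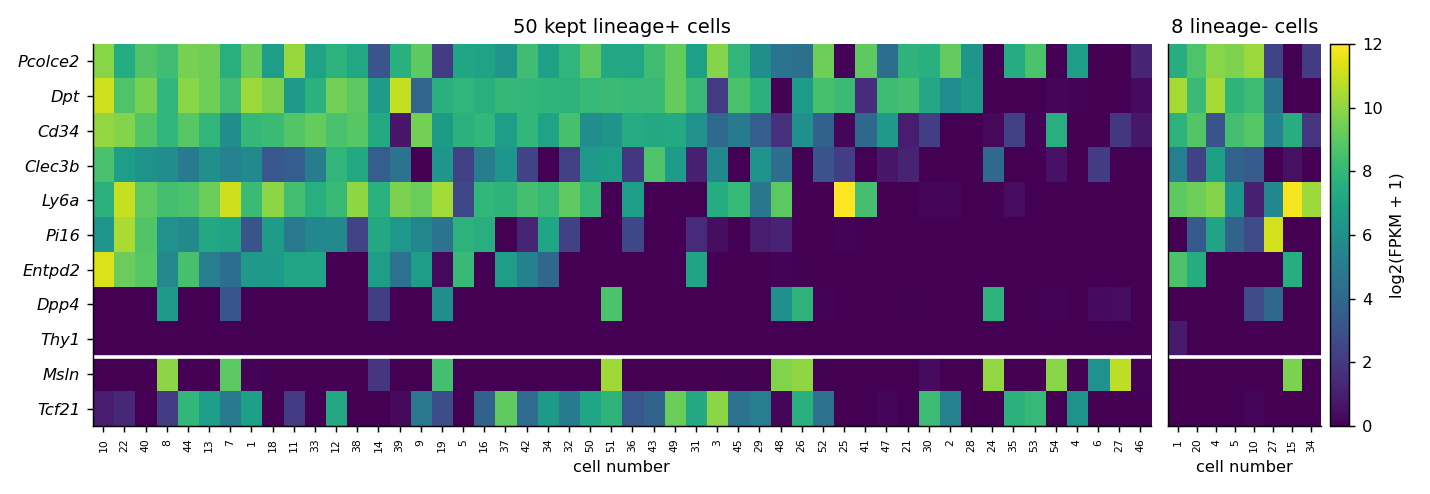
Levels, as log2(FPKM + 1), of the 9 genes and, below the white line, of Msln and Tcf21, in the 50 kept lineage+ cells (left) and the 8 lineage- cells with at least 3 of the genes detected (right), each ordered by the mean over the 9 genes. Pi16 and Entpd2 fill much of the left of the lineage+ panel, Tcf21 runs across it, Dpp4 lies above Msln, and Tcf21 is dark in all 8 lineage- cells.

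Tcf21 crossed these sets. It lies at chr10:22817275-22820128 on the minus strand and was detected in 31 of 50 lineage+ cells (62%, 47.2 to 75.3%), from 0 through a median of 12.9 to 966.3 FPKM. The gene was found in 0 of 34 lineage- cells (up to 10.3%), where its highest value was 0.364 FPKM. Tcf21 was in 16 of the 25 cells with Pi16 (64%, 42.5 to 82.0%) and in 15 of the 25 without it (60%, 38.7 to 78.9%). The shares of Ly6a were 20 of 31 cells with Tcf21 (64.5%, 45.4 to 80.8%) and 11 of 19 without (57.9%, 33.5 to 79.7%). For Entpd2 they were 12 of 31 (38.7%) and 7 of 19 (36.8%), for Clec3b 22 and 13, and for Dpp4 5 and 3. All of these intervals overlapped.

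Thy1 was listed at 0 in all 50 lineage+ cells, so its share could not differ. None of the other 8 genes had a lower share among cells with Tcf21, against 33.7% of 7313 genes tested. All 8 had a higher one, against 65.5%. The shares were nearly equal for Dpp4 (16.1 and 15.8%), Entpd2 (38.7 and 36.8%) and Clec3b (71.0 and 68.4%). With 10 FPKM as the detection threshold, 4 of the genes (Ly6a, Pi16, Dpp4 and Entpd2) had the lower share, so the count depends on the threshold. Pcolce2 was in all 31 cells with Tcf21 (100%, from 88.8%) and in 14 of the 19 without (73.7%, 48.8 to 90.9%). Cd34 was in 28 and 12 of these cells and Dpt in 28 and 13. The cells with Tcf21 had a median of 2590 detected genes and the others 1948, and the part of this difference in the shares was not tested. Counted in the other direction, Tcf21 was in 31 of 45 cells with Pcolce2, 28 of 40 with Cd34, 20 of 31 with Ly6a and 4 of 11 with Ly6c2.

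By level, Pcolce2 was at least 2-fold higher in cells with Tcf21 (means of 339.9 and 153.6 FPKM, log2 ratio 1.14), which held for 26.2% of all genes. The ratio was 0.79 with a detection threshold of 10 FPKM and 0.77 without the cells with Msln, short of 2-fold in both. Entpd2 was at least 2-fold lower (54.5 and 198.4 FPKM, log2 ratio -1.85), which held for 20.3%. The Entpd2 value depended on single cells and on the threshold: its log2 ratio was -0.76 without the highest cell on each side and 0.79 with any Tcf21 value above 0 called detected. At 10 FPKM, 3 genes (Ly6a, Pi16 and Entpd2) were at least 2-fold lower, with Pi16 at -1.88 and Ly6a at -1.36. Pi16 had means of 74.2 and 57.6 FPKM (0.36, and -0.34 without the highest cells), so no direction can be given for it. Spearman rho with Tcf21 was -0.15 for Pi16, -0.08 for Ly6a and 0.44 for Pcolce2.

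Leaving out the 11 lineage+ cells with Msln, a choice made after seeing the data, gave 26 cells with Tcf21 and 13 without. Then 4 genes had a lower share with Tcf21: Ly6a (17 of 26 and 9 of 13), Pi16 (13 and 7), Dpt (23 and 12) and Entpd2 (10 and 6). Their intervals overlapped as before. Ly6a joined Entpd2 as at least 2-fold lower, with means of 267.6 and 846.5 FPKM (-1.66, and -0.75 without the highest cells).

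**Figure D5:**
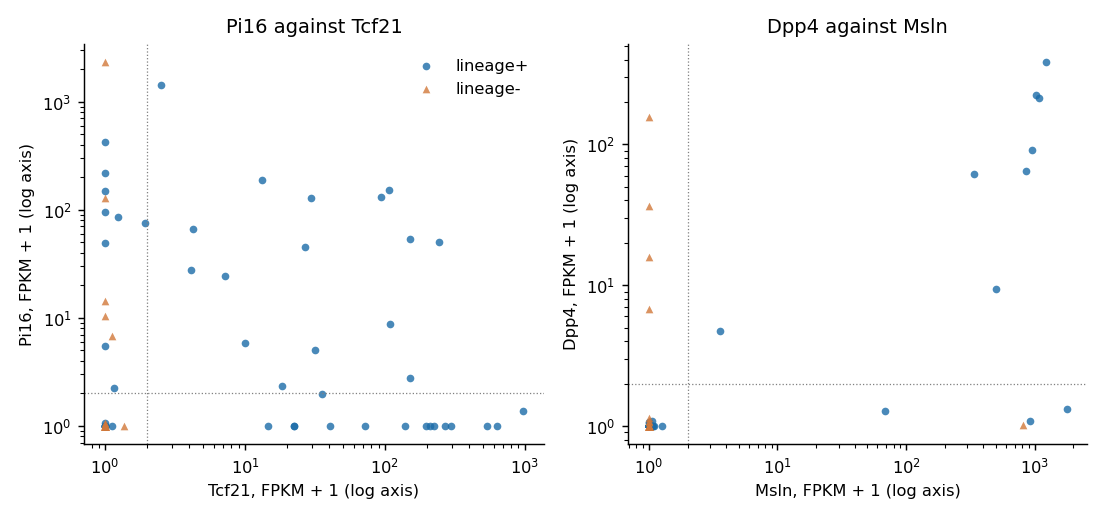
Pi16 against Tcf21 (left) and Dpp4 against Msln (right) in each kept cell, as FPKM + 1 on log axes, with dotted lines at the detection threshold of 1 FPKM, lineage+ cells as circles and lineage- cells as triangles. Pi16 is present with and without Tcf21, whereas every lineage+ cell with Dpp4 lies to the right of the Msln threshold.

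Dpp4 stood apart from the other genes. All 8 lineage+ cells with Dpp4 also had Msln, which encodes mesothelin, a surface protein of mesothelial cells. Dpp4 was in 8 of the 11 cells with Msln (72.7%, 39.0 to 94.0%) and in 0 of the 39 others (up to 9.03%), where its highest value was 0.0916 FPKM. Among 406 other genes detected in 8 lineage+ cells, 0.739% (3 genes) lay wholly in cells with Msln, as did 1.36% of the 3173 genes detected in 5 to 11 cells. The rho of Dpp4 was 0.84 with Sfrp2, a secreted Wnt modulator, 0.81 with Upk3b, a uroplakin of mesothelium, and 0.78 with Msln. It was -0.22 with Pi16 and -0.34 with Cd34. Of the 8 Dpp4 cells, 5 had Pi16 and 5 had Ly6a. Among the 8, lineage+ cell 14 was near the threshold, with 3.70 FPKM of Dpp4, 2.56 FPKM of Msln and 0.572 FPKM of Upk3b. Cells with Msln had a lower share of Dpt (6 of 11, against 35 of 39) and of Pcolce2 (7 of 11, against 38 of 39). Pi16 was in 5 of 11 and 20 of 39. The mesothelial list, 10 of 11 with values, had a median sum of 0.0705 FPKM over lineage+ cells and a highest sum of 3648 FPKM.

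The windows of 250 bases before the RefSeq start are shown for Entpd2, Cd34 and Dpp4. Cd34 was found in 18 of the 19 lineage+ cells with Entpd2 and in 22 of the 31 without. Dpp4 was found in 3 of the 19 (15.8%) and in 5 of the 31 (16.1%), so its share was nearly the same. Capitals mark CANNTG, the core of the E-box to which basic helix-loop-helix proteins such as Tcf21 bind. The windows are chr2:25395624-25395873 (plus strand), chr1:194938571-194938820 (plus strand) and chr2:62412232-62412481 (minus strand), in RefSeq GRCm38.p6, each written 5′ to 3′.
Entpd2: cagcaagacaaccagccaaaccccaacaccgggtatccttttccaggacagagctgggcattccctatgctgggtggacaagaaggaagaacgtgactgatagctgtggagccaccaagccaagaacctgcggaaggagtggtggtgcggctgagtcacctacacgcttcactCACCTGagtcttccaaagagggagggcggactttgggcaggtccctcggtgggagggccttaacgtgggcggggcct
Cd34: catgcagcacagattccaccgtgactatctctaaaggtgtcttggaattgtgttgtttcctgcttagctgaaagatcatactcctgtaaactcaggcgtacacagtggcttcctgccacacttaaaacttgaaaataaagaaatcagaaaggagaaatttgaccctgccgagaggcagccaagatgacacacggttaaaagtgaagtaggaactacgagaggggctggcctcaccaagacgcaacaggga
Dpp4: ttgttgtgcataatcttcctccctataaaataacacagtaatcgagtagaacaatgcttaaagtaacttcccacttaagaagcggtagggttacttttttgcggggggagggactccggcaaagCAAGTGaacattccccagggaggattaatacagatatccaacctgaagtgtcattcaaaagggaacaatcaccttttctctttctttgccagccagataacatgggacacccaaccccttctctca
CANNTG, which reads the same on both strands, occurred 1 time in the Entpd2 window, 0 times in the Cd34 window and 1 time in the Dpp4 window. In windows not shown it occurred 6 times for Dpt, 1 time for Pcolce2, 0 times for Pi16, and 3 and 2 times in the windows of Ly6c1. CANNTG was present in 66.2% of 32851 such windows. GGGCGG, searched on both strands, occurred 2 times for Entpd2 and was present in 32.7% of windows, and TATAAA occurred 1 time for Dpp4 and was present in 12.4%. Windows were found for 7 of the 10 genes.

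Counted per cell, lineage+ cells had 1 to 8 of the 9 genes, with a median of 6. A count of 3 or more was reached by 40 of 50 lineage+ cells (80%, 66.3 to 89.97%). Of these 40, 27 had Tcf21 (67.5%, 50.9 to 81.4%). It was reached by 8 of 34 lineage- cells (23.5%, 10.7 to 41.2%), and 0 of these 8 had Tcf21 (up to 36.9%). Tcf21 was detected in 0 of all 34 lineage- cells, so the 0 of 8 follows whatever the 9 genes do. The 8 included cell 15, with 804.9 FPKM of Msln, and cell 34, with 512389 FPKM of Sftpc. The median number of detected genes was 2535 in the 40 cells and 2412 in the 8. Another 17 of the 34 lineage- cells had none of the 9 genes.

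A set of 6 lineage- cells, numbers 1, 4, 5, 10, 20 and 27, had 6 or 7 of the genes. They held 99.996% of the lineage- sum of Pi16, 99.7% of that of Clec3b, 99.99% of that of Dpt and 99.6% of that of Pcolce2. The collagen gene Col1a2 was detected in all 6, between 21.5 and 266.6 FPKM, and in 2 of the 28 other lineage- cells. These cells are described by the genes that picked them out, so their levels are no test. Their medians were 295.98 FPKM for Dpt, 281.0 for Cd34, 294.4 for Ly6a, 623.7 for Pcolce2, 11.5 for Clec3b and 11.4 for Pi16. The 40 lineage+ cells, chosen for only 3 or more genes, had medians of 265.2, 154.2, 259.2, 196.9, 27.0 and 4.68 FPKM. Of alveolar fibroblast genes besides Tcf21, Inmt was in 5 of the 6, with a median of 3888 FPKM, and in all 40 lineage+ cells, with a median of 6152 FPKM. Mfap4 was in 5 of the 6 and 31 of the 40, and Fgf10 in 1 and 25. Spon1 was in 3 and 31 (medians of 2.66 and 81.8 FPKM), Itga8 in 2 and 22, and Npnt in 3 and 22. Lpl was in 4 and 18, Ces1d in 2 and 9, and Plin2 in 1 and 10. All 6 cells also had RNA of other cell types. The airway gene Scgb1a1 was detected in all 6 (25.9 to 4426 FPKM), as in 26 of the 28 other lineage- cells, and the surfactant gene Sftpc was at 128844 FPKM in cell 1. The immune gene Tyrobp was at 1049 FPKM in cell 10. The part of such RNA in the values of these cells was not tested.

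Ly6a, Dpp4 and Thy1 had most of their lineage- sum outside the 6 cells. Ly6a was detected in 7 of the other 28 lineage- cells and the 6 cells held 20.9% of its lineage- sum. Cell 8, at 3142 FPKM of Ly6a, had 1042 FPKM of Epcam and Col1a2 at 0. Cell 34, at 1160 FPKM, had 512389 FPKM of Sftpc and Col1a2 at 0. Cell 15, at 3601 FPKM of Ly6a, had 804.9 FPKM of Msln, 775.9 FPKM of Upk3b and 171.0 FPKM of Col1a2. The highest lineage- value of Dpp4, 155.6 FPKM, was in cell 14, which had 1235 FPKM of Tyrobp, 38871 FPKM of Cd74 and Col1a2 at 0.

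The genes most like the mean of the 9 genes over the 50 lineage+ cells, by Spearman rho among 4057 genes detected in at least 20% of them, were Gm16897 (0.81), Scara5 (0.80), Ly6c2 (0.74), Igfbp4 (0.67), Mfap5 (0.67), Ly6i (0.65), Col14a1 (0.64) and Mnf1 (0.63). Gm16897, Ly6c2 and Ly6i overlap or resemble Cd34, Ly6c1 and Ly6a, as described above. The lowest were Macf1 (-0.43), Inpp5f (-0.40), Stxbp2 (-0.38) and Timm44 (-0.38). The mean of the 9 genes itself had a rho of 0.41 with the number of genes detected. Taken singly, Pi16 was the gene most like Entpd2 (0.69), Fbln1 the gene most like Pcolce2 (0.61) and Igfbp4 the gene most like Dpt (0.61). These are likenesses of level over cells of 1 sample.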

How the data were processed

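Per the labels' protocols, cells were captured and lysed on a Fluidigm C1, cDNA was made with a SMARTer kit, each well was viewed so that empty wells, doublets and debris could be left out, and Nextera XT libraries were sequenced as 75-base single-end reads. GRCm38, mm9, RSEM 1.2.20 and Bowtie 1.1.1 are listed, without roles, in the submitters' processing notes. The authors deposited 1 table per group, with a value per gene and cell. The unit of the deposited values was inferred as FPKM, and the sources used here do not say whether both tables share a scaling. Coordinates are GRCm38, since 99.4% of 19749 symbols overlapped their GENCODE M21 gene.

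Of 23846 rows, 1830 without values, 731 with a repeated symbol and 1 whose symbol differed between tables were left out. Means, shares and ratios after adding 1 FPKM were computed in Python 3.11.15 with pandas 2.3.3 and scipy 1.17.1. The computation was tested on simulated data. Doublets were not called again. Lineage- cell 23, whose library name says debris, passed the filter on genes and was kept; it had none of the members at 1 FPKM. The members, gene lists and comparisons were chosen with earlier results of these data known, and the splits by Pi16, Entpd2 and Msln were chosen after seeing the values. Named genes are all members, Tcf21, the listed adventitial and Ly6 genes and those with the highest or lowest rho; Msln, Gm16897 partners and markers in single cells were chosen after their values were seen. Alternatives changed the added value, detection threshold, gene minimum, scaling, averaging and the cells kept.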

Additional observations from a re-analysis of the deposited data

How the results depend on the processing

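Over the alternative settings, with those on Msln and on the Tcf21 threshold for levels chosen after seeing the data, 38 values of the summary counts stayed within their limits and 13 moved. For single genes 185 stayed, 47 moved and 2 that were past 2-fold reversed. Of 180 log2 ratios of single genes, 23 had the other sign than the main value, 6 of 81 between lineages (Ly6a, Pi16 and Entpd2) and 17 of 99 between cells with and without Tcf21 (every gene but Thy1 and Pcolce2). The cause was not tested in any of these. With at least 2000 detected genes per cell (35 lineage+ and 12 lineage- cells), 3 of the genes (Pi16, Dpp4 and Clec3b) had a lineage+ mean at least 2-fold above the lineage- mean, in place of 6, and 7 of the other adventitial genes, in place of 15. Under that minimum the Entpd2 lineage ratio reversed to -0.11. No gene had a lower share among cells with Tcf21 in the main count. The number was 1 with any value above 0 called detected (Dpp4), 4 at 10 FPKM (Ly6a, Pi16, Dpp4 and Entpd2), 4 with at least 2000 genes, 2 with near-identical profiles counted separately and 4 without cells with Msln. Genes at least 2-fold lower with Tcf21 numbered 3 at 10 FPKM (Ly6a, Pi16 and Entpd2), 2 with at least 2000 genes, 2 without cells with Msln, 0 with any value above 0 called detected, 0 by the mean of log2 values and 0 without the highest cells, in place of 1. With any value above 0 called detected, the Entpd2 ratio between cells with and without Tcf21 reversed to 0.79. No paired analysis was possible because the replicate numbers in the labels only name cells and no result comes from a test. Files without counts limit how far a listed 0 can be read: Gapdh was listed at 0 in 4 kept lineage+ and 2 kept lineage- cells.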

Other observations

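The library names hold a letter and number code, which was read here as a row and column and is not explained by the labels. Pi16 was detected in 1 of 8 kept lineage+ cells of row A, 1 of 7 of row E and 6 of 6 of row G, and Msln in 3, 3 and 1 of them. These rows had the lowest and highest Pi16 shares. In the other rows Pi16 was in 2 of 5 (B), 3 of 5 (C), 5 of 7 (D), 4 of 5 (F) and 3 of 7 (H). By this code, the 2 near-identical pairs both came from column 8, rows H and F and rows G and E. Among cells below 1000 detected genes, which were left out, lineage+ cell 20 had 1437 FPKM of Pcolce2 and lineage- cell 32 had 41.5 FPKM of Pi16.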
